A study of Mus musculus with 24 samples.

Results

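The genes described here make ribosomes: the subunits of RNA polymerase I (Pol I) and the nucleolar factors that cut, modify and fold its transcript. The set holds 35 protein-coding genes of the 22064 gene identifiers in the deposited table. They were chosen by name, as every gene whose symbol starts with Polr1, or with Nop or Utp and a digit, together with Ncl, Npm1, Fbl, Dkc1, Nolc1, Bop1, Wdr12, Nip7, Gar1, Nhp2 and Rrn3. The set and the lists beside it were proposed with earlier results of these data known. By role the 35 comprise 6 genes of Pol I, 3 of nucleolar organisation, 3 of box C/D and 4 of box H/ACA small nucleolar ribonucleoproteins (snoRNPs), 13 of the small subunit (SSU) processome and 6 of 60S assembly. All 35 had values. A filter on low counts kept 34 for testing, and Utp14b was the 1 left out.

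Microglia, which are the macrophages that live in the brain, were sorted from wild-type mice on day 28, and their RNA was sequenced in 4 groups of 6 libraries. The WD-Exos and ND-Exos groups had the BCAS operation and received exosomes of the kind so named, 100 µg every 3 days through the tail vein. The BCAS group had the operation and PBS, and the Sham group had a sham operation and PBS. BCAS commonly stands for bilateral carotid artery stenosis, in which both carotid arteries are narrowed so that the forebrain receives less blood. Exosomes are small vesicles released by cells, and the series title names foam cells, which are lipid-laden macrophages, as a source. The labels do not spell out ND and WD, and they give no strain, sex or age. Whether the 6 libraries of a group are from different animals is not stated either, so each p-value measures only the spread among libraries, some of which may be technical.

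Ribosome production begins in the nucleolus, where Pol I copies the ribosomal DNA into a long precursor. Box C/D snoRNPs methylate this RNA, box H/ACA snoRNPs turn uridines into pseudouridines, and the SSU processome and 60S assembly factors fold and cut it into the parts of both subunits. The pathway is a large cost to a growing cell, is driven by Myc and by mTOR signalling, and is raised when cells grow and divide. Microglia divide little in the healthy adult brain and can proliferate after injury.

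Each library held between 24277722 and 28892423 counts, spread over 8518 to 10802 detected genes. Levels are given as CPM, the share of a library's counts that a gene holds after scaling between libraries by TMM, as mean ± SD with n = 6. The microglial receptor Cx3cr1 stood at 4808 ± 762 CPM with WD-Exos, 4645 ± 1180 with ND-Exos, 4772 ± 964 in BCAS and 3663 ± 319 in Sham. Summed over 10 microglial markers the level averaged 54328, 48898, 53478 and 46536 CPM in the same groups. For 10 oligodendrocyte markers the sum was 208 to 5858 CPM with WD-Exos, 81.3 to 4905 with ND-Exos, 125 to 1338 in BCAS and 164 to 8640.1 in Sham. In bulk RNA, fewer cells of a type and less RNA per cell cannot be told apart.

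Myc binds the E-box, CACGTG, which reads the same on both strands. The promoter window searched ran from 250 bases before to 50 after each start site in RefSeq (GRCm38.p6). Of the 35 genes, 28 had a promoter entry, and 7 of these (25%) held the motif. The share was 12.1% of 8343 tested genes and 8.09% of all 27025 promoters in the table. The 7 include Utp14b, which was not tested, so the 25% and the 12.1% do not have the same base. A match is a description of letters and not a site of binding. The 4 windows of 30 bases below show the motif, in capitals, in the promoters of the 3 tested carriers for which a window centred on the motif lay wholly upstream of the start site within the entry. They are Nop2 at chr6:125131811-125131840 (plus strand, 60 bases upstream of the start site), Rrn3 at chr16:13780472-13780501 and chr16:13780639-13780668 (both plus strand, 215 and 48 bases upstream) and Utp18 at chr11:93885769-93885798 (minus strand, 20 bases upstream). The other carriers were Utp4, Utp14b, Utp20 and Utp25.
Nop2: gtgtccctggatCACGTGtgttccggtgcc
Rrn3, distal: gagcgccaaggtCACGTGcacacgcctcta
Rrn3, proximal: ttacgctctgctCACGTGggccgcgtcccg
Utp18: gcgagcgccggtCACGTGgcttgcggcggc

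Levels in microglia were uneven across the pathway. Summed over the 35 genes, the level averaged 1657 ± 129 CPM with WD-Exos, 1699 ± 148 with ND-Exos, 1614 ± 132 in BCAS and 1844 ± 158 in Sham, and the groups overlapped. Npm1 and Ncl alone made up 32.5% of the sum over all 24 libraries, and adding Nop53, Polr1d and Nop10 brought the share to 51.3%. A mean above 100 CPM was found for 4 genes, a mean of 10 to 100 CPM for 23 and a mean under 10 CPM for 8. Counts were present in all 24 libraries for 23 of the 35 genes.

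Per kilobase of coding sequence, which allows genes to be set against each other, the nucleolar chaperone Npm1 stood highest at 404 CPM. The small H/ACA protein Nop10 followed at 395 CPM per kilobase, the shared polymerase subunit Polr1d at 261 and the 60S factor Nop16 at 99.4. Npm1 and Nop10 differed by less than their spread over libraries, which was 74.7 and 121 (SD, n = 24). The lowest 4 were Gar1 at 2.80, Utp25 at 1.77, Utp20 at 0.77 and Utp14b at 0.00214. Coding length leaves out the untranslated parts, which also yield reads. Npm1 has processed pseudogenes, and how the counting treated their reads is not given in the sources used here.

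**Figure D1:**
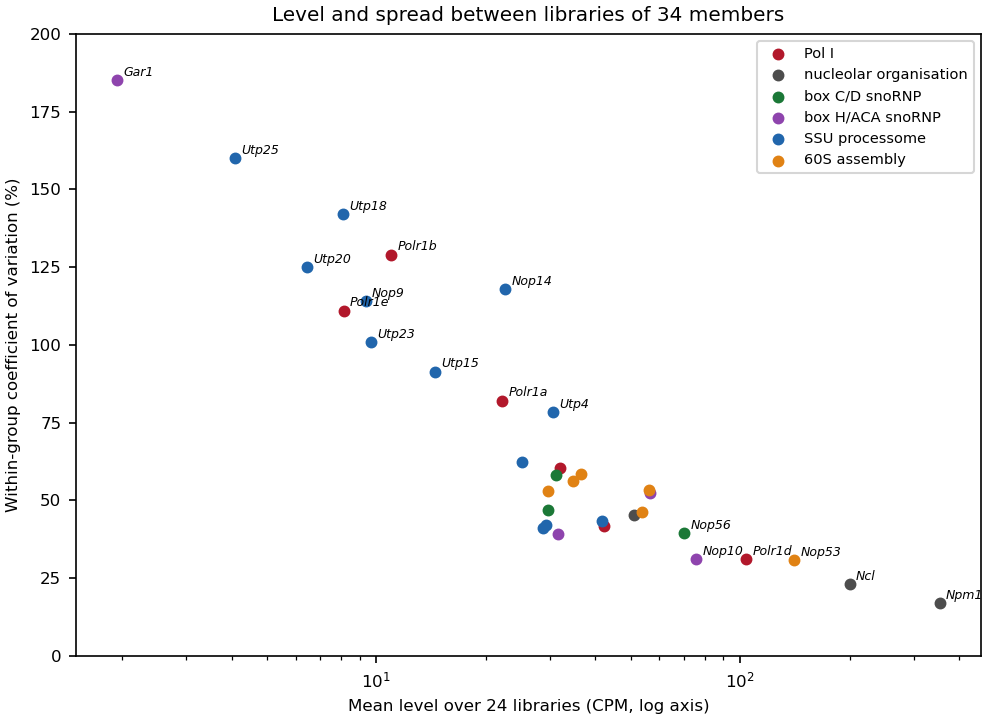
Mean level over 24 libraries (CPM, log axis) against the within-group coefficient of variation in percent, 1 point per gene coloured by role, for 34 genes; Utp14b is left out and names in the crowded middle are omitted. The spread was smallest for Npm1, at 17.0%, and largest for Gar1, at 185%.

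The spread between libraries of one group was smaller for the abundant genes. The within-group coefficient of variation was 17.0% for Npm1 and 23.2% for Ncl. It passed 100% for 9 genes in the plot of level and spread, among them Polr1b at 129%, Utp18 at 142% and Gar1 at 185%. The median standard error (SE) of a log2 fold change between groups was 0.595 over the 34 tested genes in BCAS against Sham, and 1.10 over all genes tested. Only large differences could therefore be seen for many of these genes. The 95% interval of the fold change lay within 2-fold in all 4 comparisons for Ncl, Nop10, Nop53, Npm1 and Polr1d, and it reached past 2-fold both up and down for 14 of 34 genes in BCAS against Sham.

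No gene of the set passed an adjusted p of 0.05 in edgeR's quasi-likelihood test, in any of the 4 comparisons between groups or in the test of any difference among them. In BCAS against Sham 0.0% of all 10219 genes tested passed, in ND-Exos against BCAS 0.0196%, in WD-Exos against BCAS 0.0%, in WD-Exos against ND-Exos 0.0196% and among the 4 groups 0.0294%. At an unadjusted p under 0.05 the counts of the 34 genes were 1, 2, 1, 0 and 0 in the same order. The background shares at that level were 6.04%, 4.47%, 3.71%, 5.33% and 6.33% of all genes tested, which is 617, 457, 379, 545 and 647 genes. DESeq2 and limma voom also called 0 of the set, although DESeq2 called 193 genes of the whole table in BCAS against Sham. In none of the 4 comparisons did a gene of the set have libraries of both groups that did not overlap, against 0.372%, 0.186%, 0.186% and 0.519% of all genes tested.

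**Figure D2:**
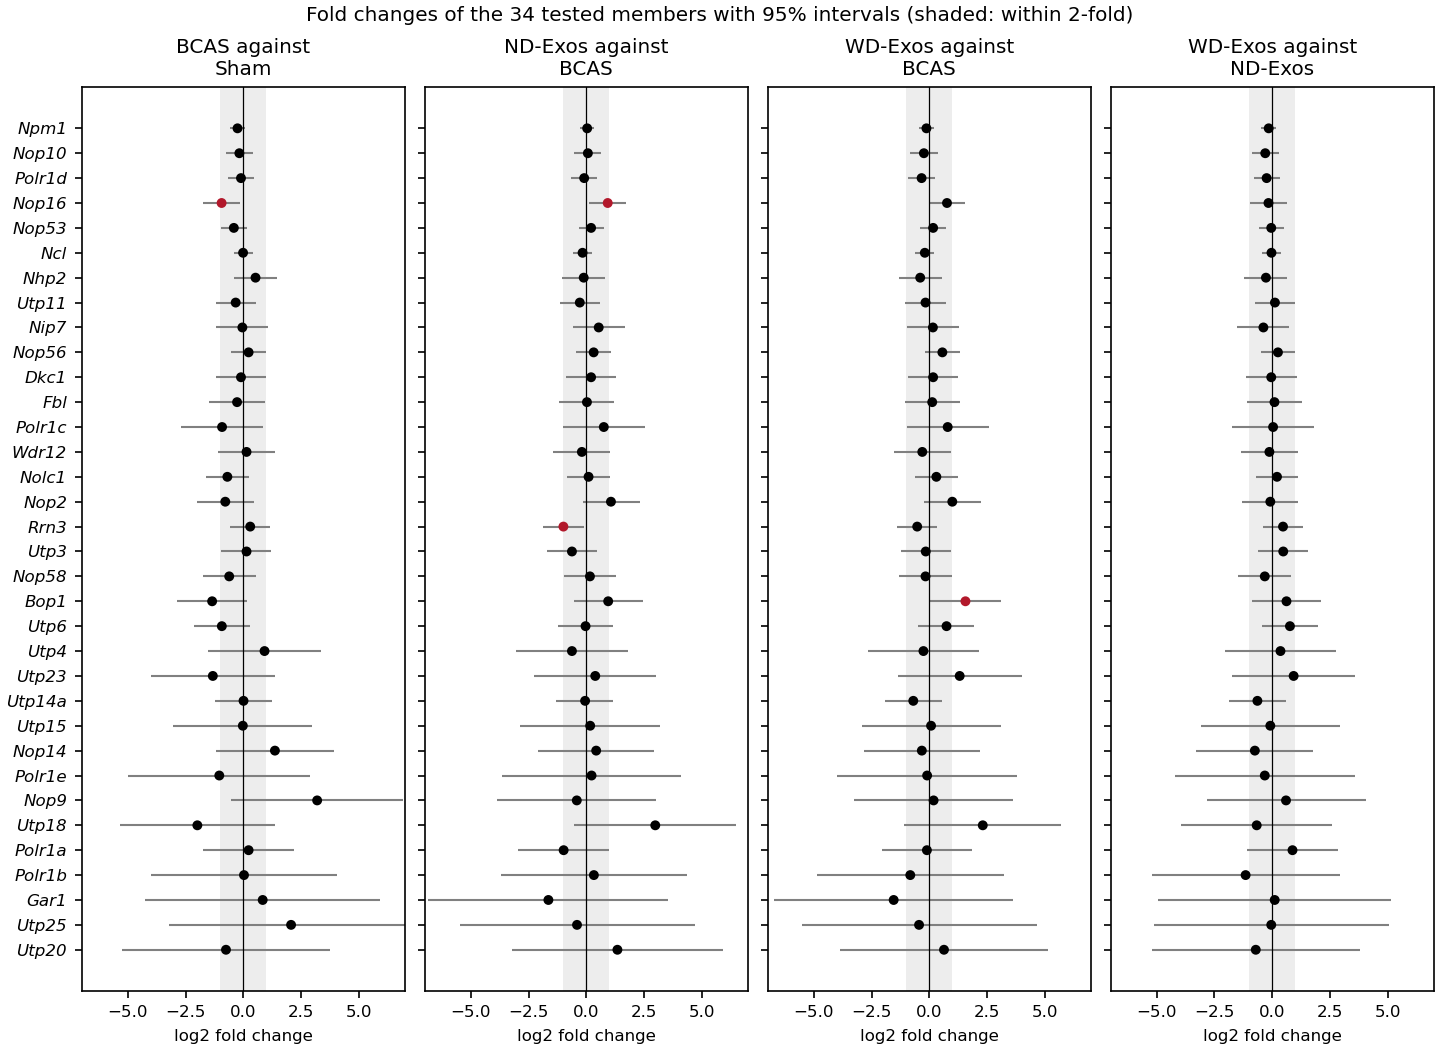
The log2 fold change with its 95% interval for the 34 tested genes, ordered by level per coding kilobase, 1 panel per comparison; the shaded band is a change within 2-fold, red points have an unadjusted p under 0.05, and intervals are cut at the edge of the axis. Intervals widen towards the genes of low level at the bottom, and the red points are Nop16 in 2 panels and Rrn3 and Bop1 in 1 each.

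The catalytic subunits of Pol I varied widely between libraries of one group. Polr1a, the largest subunit, stood at 25.1 ± 18.5 CPM with WD-Exos, 13.6 ± 10.2 with ND-Exos, 26.9 ± 24.6 in BCAS and 23 ± 16.4 in Sham. Polr1b, the second catalytic subunit, stood at 6.58 ± 9.03, 14.6 ± 17.3, 11.6 ± 15.9 and 11.4 ± 13.2 CPM in these groups. A count of Polr1a was present in 23 of 24 libraries and one of Polr1b in 21. Polr1e, a subunit that helps the enzyme to start and elongate, had counts in 19 of 24 libraries and 5.92 ± 5.0, 7.37 ± 11.4, 6.28 ± 6.90 and 13 ± 11.1 CPM in the same order.

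Polr1c and Polr1d form a pair that Pol I shares with Pol III, the enzyme of 5S rRNA and transfer RNA. Polr1d was the best measured Pol I gene, at 87.2 ± 33.7 CPM with WD-Exos, 103 ± 13.3 with ND-Exos, 109.7 ± 34.2 in BCAS and 117 ± 41.6 in Sham. Its log2 fold change was -0.33 in WD-Exos against BCAS (95% interval -0.90 to 0.24) and -0.10 in BCAS against Sham (-0.66 to 0.47). Polr1c stood at 35.2 ± 18.2, 34.2 ± 19.0, 20.2 ± 11.7 and 38.1 ± 25.7 CPM, with 1 BCAS library at 0.881 CPM and 1 Sham library at 0.

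Rrn3, which carries Pol I to its promoter and is set by growth signals, was the Pol I gene with an unadjusted p under 0.05, in ND-Exos against BCAS. Its lowest, median and highest library were 13.8, 34.1 and 75.6 CPM with WD-Exos, 10.3, 28.3 and 47.7 with ND-Exos, 35.4, 56.9 and 78.7 in BCAS and 23.5, 42.3 and 74.4 in Sham. The ND-Exos and BCAS libraries overlapped between 35.4 and 47.7 CPM. Rrn3 averaged 28.3 ± 13 CPM with ND-Exos and 56.0 ± 16.9 in BCAS, a log2 fold change of -0.99 (SE 0.43, 95% interval -1.87 to -0.11, adjusted p = 0.909 by edgeR). The difference did not pass the threshold. In WD-Exos against BCAS the log2 fold change was -0.52 (-1.39 to 0.35), and in BCAS against Sham it was 0.30 (-0.57 to 1.17).

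Further Pol I subunits are listed under older symbols and so fall outside the choice by name. Twistnb stood at 21.5 ± 11.6 CPM with WD-Exos, 33.9 ± 26.9 with ND-Exos, 29.7 ± 7.61 in BCAS and 46.9 ± 24.1 in Sham. Cd3eap stood at 18.8 ± 10.5, 27.4 ± 16.5, 29.4 ± 19.7 and 19.7 ± 6.27 CPM, and Znrd1 at 32.7 ± 9.70, 30.6 ± 17.5, 19.9 ± 8.37 and 32.4 ± 9.93 CPM. Each of the 3 had an adjusted p of 1 in every comparison between groups.

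**Figure D3:**
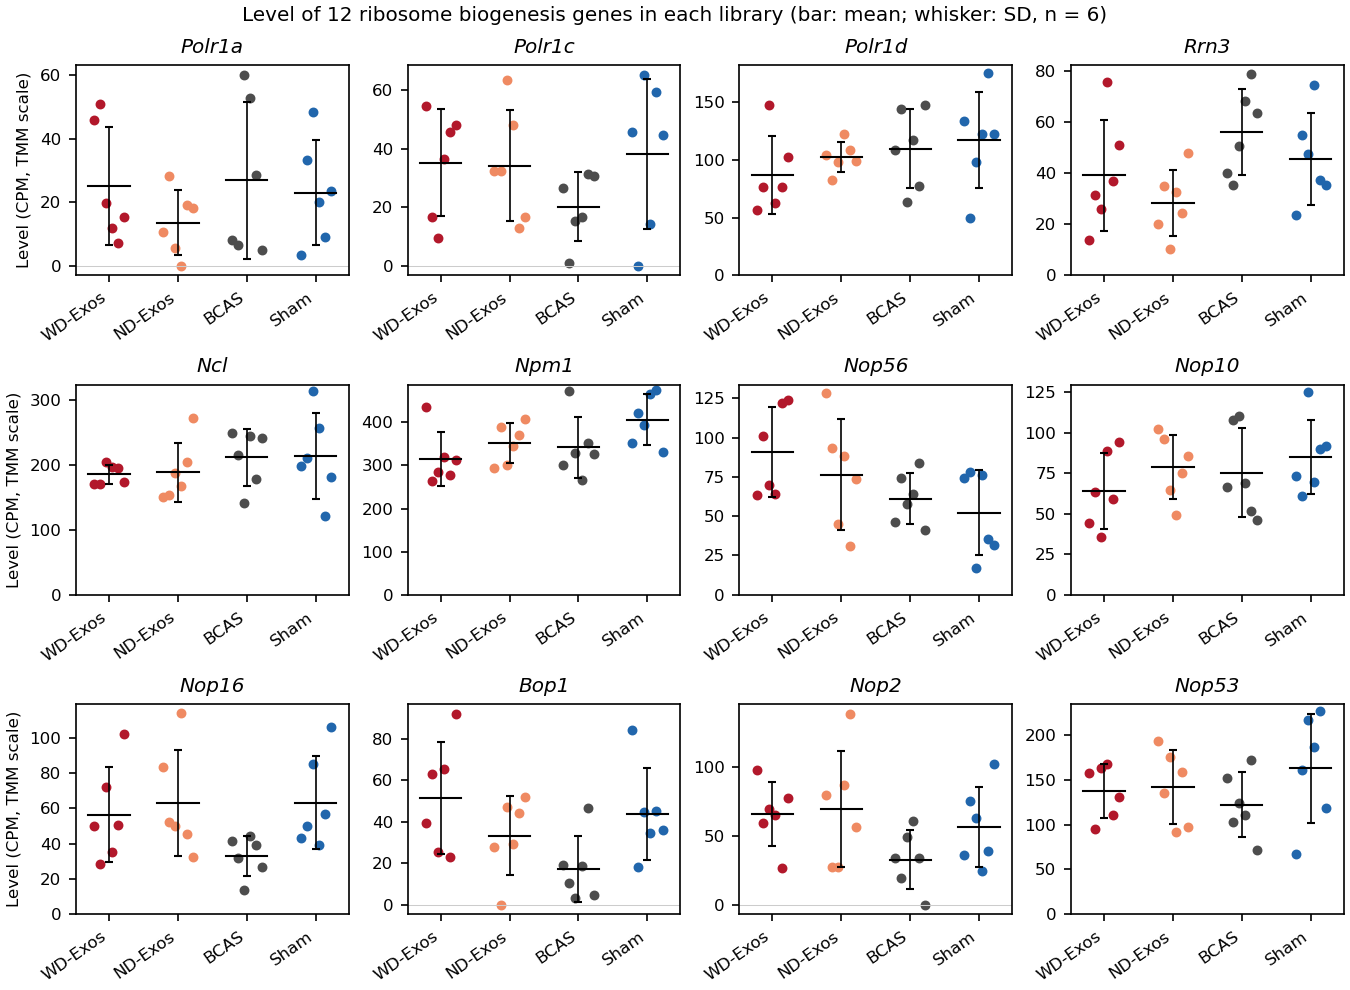
The level in CPM of 12 genes in every library, with the mean (bar) and SD (whisker, n = 6) of WD-Exos, ND-Exos, BCAS and Sham from left to right. Npm1 ranges from 264 to 476 CPM over all libraries; the BCAS libraries of Nop16 reach 44.5 CPM at most, inside the range of each other group.

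Nucleolin (Ncl) and nucleophosmin (Npm1), abundant nucleolar proteins that bind ribosomal precursors, gave the narrowest bounds. Ncl ranged over libraries from 170.4 to 204 CPM with WD-Exos, 151 to 272 with ND-Exos, 141 to 249.9 in BCAS and 122 to 314 in Sham, and the means were 185 ± 15.2, 189 ± 45.7, 212 ± 43.8 and 214 ± 65.9. Its log2 fold change was -0.01 in BCAS against Sham (95% interval -0.42 to 0.40) and -0.19 in WD-Exos against BCAS (-0.60 to 0.22). Npm1 averaged 315 ± 62.1 CPM with WD-Exos, 351 ± 46.3 with ND-Exos, 342 ± 70.5 in BCAS and 406 ± 59.0 in Sham. The Npm1 interval ran from -0.56 to 0.07 in BCAS against Sham (adjusted p = 1 by edgeR), from -0.28 to 0.35 in ND-Exos against BCAS, and from -0.43 to 0.20 in WD-Exos against BCAS. A change of 2-fold either way therefore lay outside the intervals of both genes. Nolc1, a chaperone of snoRNPs, stood at 51.4 ± 13, 44.4 ± 22.3, 41.4 ± 26.3 and 66.8 ± 27.9 CPM, and its BCAS libraries, at 5.03 to 84.4 CPM, overlapped the Sham libraries, at 32.4 to 111.

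Of the box C/D core, Nop56 had the highest level. Its lowest, median and highest library were 63.7, 85.5 and 124 CPM with WD-Exos, 30.8, 80.8 and 128 with ND-Exos, 41.1, 60.9 and 83.7 in BCAS and 17.1, 54.9 and 78.0 in Sham. With WD-Exos Nop56 averaged 90.8 ± 28.5 CPM, against 61.1 ± 16.3 in BCAS (a log2 fold change of 0.57 with an SE of 0.37 and a 95% interval -0.18 to 1.33). The 2 groups overlapped and the difference did not pass the threshold. Fbl, the methyltransferase of the complex, stood at 31.6 ± 17.6 CPM with WD-Exos, 29.5 ± 20.5 with ND-Exos, 28.9 ± 17.1 in BCAS and 34.9 ± 17.4 in Sham. Nop58, the partner of Nop56, stood at 23.4 ± 14.3, 29.3 ± 14, 26.2 ± 6.61 and 39.9 ± 18.3 CPM in that order.

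The box H/ACA core also serves telomerase RNA. Its small subunit Nop10 stood at 64.2 ± 23.4 CPM with WD-Exos, 78.8 ± 20 with ND-Exos, 75.3 ± 27.6 in BCAS and 84.8 ± 22.8 in Sham, with all intervals inside 2-fold. The pseudouridine synthase Dkc1 stood at 58.5 ± 36.3, 60.1 ± 24.5, 52.1 ± 30.5 and 56.0 ± 25.9 CPM, and Nhp2 at 28.6 ± 11.5, 34.5 ± 15.8, 37.4 ± 13.5 and 25.8 ± 7.26. Gar1, the fourth core protein, was seldom seen. Counts of Gar1 were present in 9 of 24 libraries, 2 with WD-Exos, 1 with ND-Exos, 2 in BCAS and 4 in Sham, and the highest library held 11.3 CPM.

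Among the 6 genes of 60S assembly, 5 were lower in BCAS than in Sham and Wdr12 was higher, with a median log2 fold change of -0.59; over all genes tested the median was 0.0 and 49.9% were higher. The same 6 genes had 5 higher in ND-Exos against BCAS (median 0.74) and 5 higher in WD-Exos against BCAS (median 0.47), where 50.4% and 48.9% of all genes were higher. These 3 comparisons share the BCAS libraries, so they are not separate observations. In WD-Exos against ND-Exos, which uses no BCAS library, 5 of the 6 were lower with a median of -0.10, where 49.2% of all genes were higher. The mean log2(CPM + 1) of the 6 genes was 5.63 ± 0.199 with WD-Exos, 5.54 ± 0.61 with ND-Exos, 4.95 ± 0.737 in BCAS and 5.63 ± 0.225 in Sham. BCAS replicate 6, at 3.64, was the lowest library of all. BCAS replicates 4 and 5 stood at 5.53 and 5.72, within the Sham range of 5.36 to 5.99. ND-Exos replicate 2, at 4.46, lay below every BCAS library but replicate 6.

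Nop16, named in yeast as a 60S precursor protein, had the smallest adjusted p of the set. The lowest, median and highest library were 28.6, 50.2 and 102 CPM with WD-Exos, 32.4, 51.3 and 114 with ND-Exos, 13.9, 35.6 and 44.5 in BCAS and 39.1, 53.4 and 106 in Sham. Nop16 averaged 33.0 ± 11.4 CPM in BCAS and 63.4 ± 26.6 in Sham, a log2 fold change of -0.94 (SE 0.39, 95% interval -1.74 to -0.14, adjusted p = 0.549 by edgeR). With ND-Exos it averaged 63 ± 30.3 CPM, against 33.0 ± 11.4 in BCAS (0.93, SE 0.39, adjusted p = 0.798 by edgeR), and with WD-Exos 56.4 ± 27.0 CPM (0.77, SE 0.39). None of these passed the threshold, and the libraries of BCAS and Sham overlapped between 39.1 and 44.5 CPM.

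Bop1, which joins Wdr12 and Pes1 in the PeBoW complex of 60S maturation, ran at 23.3, 51.2 and 92.1 CPM (lowest, median and highest library) with WD-Exos, 0.119, 36.7 and 51.8 with ND-Exos, 3.21, 14.6 and 46.8 in BCAS and 18.5, 40.5 and 84.4 in Sham. Bop1 averaged 51.4 ± 26.9 CPM with WD-Exos and 17.3 ± 16.0 in BCAS, a log2 fold change of 1.57 (SE 0.74, 95% interval 0.05 to 3.10, adjusted p = 1 by edgeR). The value ran from 1.34 to 2.19 when 1 library was left out, and was 2.19 without BCAS replicate 5, which held the highest BCAS level. Bop1 in BCAS against Sham had a log2 fold change of -1.35 (SE 0.74, 95% interval -2.86 to 0.17). Its partner Wdr12 did not share this order, at 31.4 ± 20.2 CPM with WD-Exos, 34 ± 20 with ND-Exos, 38.8 ± 18.1 in BCAS and 35.1 ± 19.9 in Sham.

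Nop2, an RNA methyltransferase of the 60S path, averaged 65.9 ± 23.3 CPM with WD-Exos, 69.4 ± 41.9 with ND-Exos, 33.0 ± 21.2 in BCAS and 56.6 ± 28.9 in Sham; its BCAS libraries ran from 0.391 to 60.5 CPM and its Sham libraries from 24.9 to 102. Nop53, which binds the 5S particle, stood at 137 ± 30, 142 ± 41.1, 122 ± 35.8 and 162 ± 60.8 CPM, and its interval in BCAS against Sham ran from -0.96 to 0.14. Nip7 stood at 28.8 ± 6.42, 37.4 ± 19.9, 25.8 ± 17.9 and 26.5 ± 15.1 CPM. Other measures of the same libraries are given beside these values. The number of genes detected was 9225 to 10802 with WD-Exos, 9189 to 10611 with ND-Exos, 8518 to 9897 in BCAS and 9164 to 10274 in Sham. The sum over 22 immediate early and heat shock genes was 2113 to 26242 CPM with WD-Exos, 3910 to 7379.9 with ND-Exos, 1042 to 21330.4 in BCAS and 849 to 3625 in Sham. The median of this sum was 10633 CPM with WD-Exos, 5014 with ND-Exos, 4097 in BCAS and 2519 in Sham. BCAS replicates 4, 5 and 6 lay within the Sham range. Of 21 tested genes of this list, 19 were higher and 2 lower in BCAS against Sham (median log2 fold change 1.35). Over all genes tested 49.9% were higher. An unadjusted p under 0.05 was found for 5 of the 21, against 6.04% of all genes tested, and 0 passed the threshold. All 10 microglial markers had a positive log2 fold change in BCAS against Sham (median 0.27). Of 8 tested markers of border macrophages, 1 was higher and 7 were lower in that comparison (median -1.22). All 8 tested oligodendrocyte markers of 10 had a negative log2 fold change in BCAS against Sham (median -2.21). Sham replicate 4 held a summed 8640.1 CPM of oligodendrocyte markers. The other 5 Sham libraries, at 164 to 384 CPM, lay within the BCAS range of 125 to 1338. Both tested mural cell markers of 10 also had a negative log2 fold change in BCAS against Sham. The mural sum was 0.111 to 20 CPM with WD-Exos, 0 to 26.1 with ND-Exos, 0 to 0.187 in BCAS and 0 to 1095 in Sham, where replicate 2 held the highest value and replicate 6 held 0. The part of these in the 60S values was not tested.

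The SSU processome genes, whose names come from yeast U3 proteins, showed no shared direction. Of 12 tested, 6 were higher and 6 lower in BCAS against Sham (median -0.01), 5 and 7 in ND-Exos against BCAS (-0.04), 6 and 6 in WD-Exos against BCAS (-0.03) and 6 and 6 in WD-Exos against ND-Exos (0.04). Utp11, at 37.4 ± 11.3 CPM with WD-Exos, 34.5 ± 13.7 with ND-Exos, 41.9 ± 21.7 in BCAS and 52.8 ± 23 in Sham, had the highest level per coding kilobase of the class. Utp3, Utp6 and Utp14a also had a count in all 24 libraries. Utp6 stood at 35.2 ± 13.3 CPM with WD-Exos, 20.6 ± 15.1 with ND-Exos, 21 ± 9.11 in BCAS and 40.1 ± 10.8 in Sham, and Utp3 at 29.9 ± 5.67, 21.5 ± 13.6, 33.2 ± 8.56 and 30.2 ± 16.3 CPM. Utp4 had one in 21, Utp15 in 20, Nop9 in 19, Utp18 in 21, Utp20 in 15 and Utp25 in 11. Utp23 and Nop14 were counted everywhere but fell as low as 0.115 and 0.0362 CPM. Utp14b, a retrogene copy of Utp14a known from the male germ line, had a count in 2 libraries, 1 with WD-Exos and 1 in Sham, at no more than 0.0831 CPM. Utp14a itself stood at 17.4 ± 10.7, 27.1 ± 13.5, 28.1 ± 20.1 and 28.0 ± 16.9 CPM.

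The E-box carriers likewise did not share a direction. Of the 6 tested carriers, 3 were higher and 3 lower in BCAS against Sham. The log2 fold change was -0.78 for Nop2 (95% interval -2.01 to 0.45), -1.99 for Utp18 (-5.36 to 1.38) and -0.75 for Utp20 (-5.27 to 3.77). It was 0.30 for Rrn3 (-0.57 to 1.17), 0.92 for Utp4 (-1.51 to 3.36) and 2.07 for Utp25 (-3.21 to 7.36). For Utp18 the value ran from -3.15 (without BCAS replicate 1) to -1.48 (without Sham replicate 6) when 1 library was left out. For Utp25 it ran from 1.25 to 8.15 and for Utp20 from -2.17 to -0.28. Counts of Utp25 were present in 2 BCAS and 2 Sham libraries, and counts of Utp20 in 3 BCAS and 5 Sham libraries. The directions of Utp25 and Utp20 therefore rest on few libraries with counts. Myc itself averaged 55.7 ± 36.7 CPM with WD-Exos, 29.8 ± 15.8 with ND-Exos, 26.2 ± 41.9 in BCAS and 11.8 ± 9.34 in Sham, and 1 BCAS library held 111 CPM. The Myc log2 fold change was 1.09 in WD-Exos against BCAS (-1.16 to 3.34) and 1.15 in BCAS against Sham (-1.10 to 3.40), and neither passed the threshold.

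Over the whole set, 13 of 34 genes were higher and 21 lower in BCAS against Sham, with a median log2 fold change of -0.10. The split was 20 higher and 14 lower in ND-Exos against BCAS (median 0.08), 16 and 18 in WD-Exos against BCAS (-0.09) and 14 and 20 in WD-Exos against ND-Exos (-0.04). The medians of all genes tested were 0.0, 0.01, -0.02 and -0.01. The mean log2(CPM + 1) of all 35 genes was 4.45 ± 0.0994 with WD-Exos, 4.31 ± 0.31 with ND-Exos, 4.26 ± 0.135 in BCAS and 4.46 ± 0.154 in Sham, and ND-Exos replicate 3, at 3.7, was the lowest library.

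The products of this pathway are joined to ribosomal proteins, whose genes were set beside the biogenesis genes. Of 79 tested genes of cytosolic ribosomal proteins, 0 were higher and 79 lower in BCAS against Sham, with a median log2 fold change of -0.47. Over all genes tested 49.9% were higher. An unadjusted p under 0.05 was found for 67 of the 79, against 6.04% of all genes tested, and 0 passed after adjustment. The 79 were read in the same libraries and are not separate observations. The 81 such genes with values summed to 40104 ± 6164 CPM with WD-Exos, 41788 ± 4528 with ND-Exos, 43444 ± 6580 in BCAS and 59058 ± 5358 in Sham. The biogenesis genes had a median of -0.10 with quartiles of -0.74 and 0.20 in that comparison, a wider spread on both sides of 0. Their median SE was 0.595 and their summed level only 1614 ± 132 CPM in BCAS, so this width includes error of measurement. It does not show a different response. The 6 with an interval within 2-fold there were Nop53 (-0.41), Npm1 (-0.25), Nop10 (-0.17), Polr1d (-0.10), Ncl (-0.01) and Nop56 (0.23). The difference between the lists was not tested. In the other 3 comparisons the medians of the ribosomal protein genes were -0.05, -0.10 and -0.01.

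**Figure D4:**
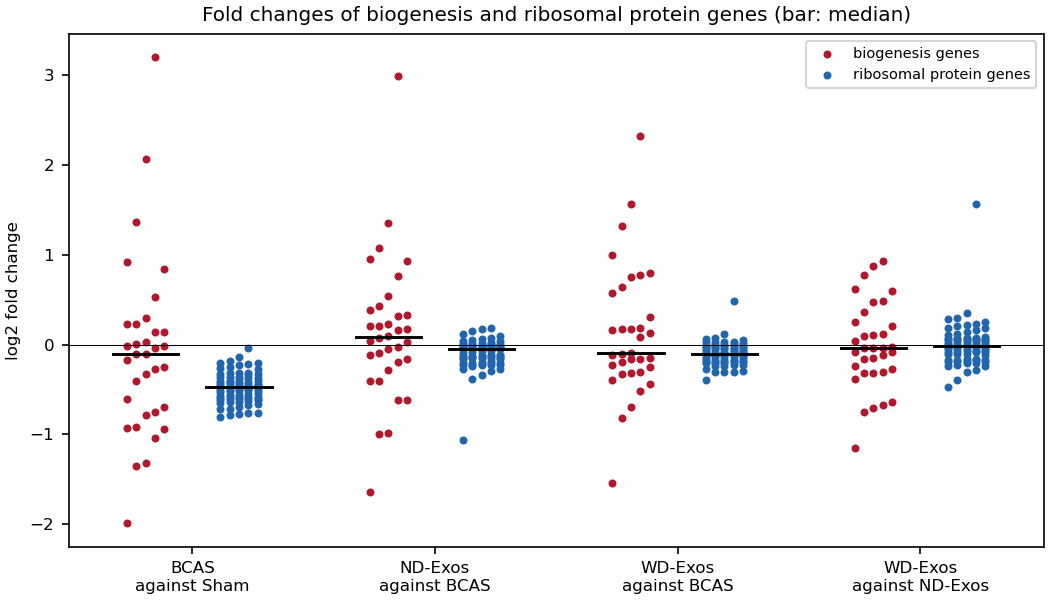
The log2 fold change of each tested biogenesis gene (red, 34 genes) and ribosomal protein gene (blue, 79 genes) in the 4 comparisons, with the median as a bar. In BCAS against Sham all 79 ribosomal protein genes lie below 0 around a median of -0.47, and the biogenesis genes lie on both sides with a median of -0.10. The biogenesis genes had a median SE of 0.595 there, so their width includes error of measurement.

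Other genes of the pathway, taken from lists that share Mybbp1a, Rrp9 and Top2a between pairs of them, also held no gene past the adjusted threshold in any comparison. In BCAS against Sham, 10 of 19 tested factors of Pol I initiation and ribosomal DNA chromatin were higher and 9 lower, as were 11 and 11 of 22 Pol III genes, 28 and 19 of 47 other SSU processome genes, 30 and 27 of 57 other 60S assembly genes, 6 and 6 of 12 other snoRNP genes and 7 and 7 of 14 RNA exosome genes. In the same comparison 15 of 19 Myc and mTOR regulators were higher (median 0.56, with 0 at an unadjusted p under 0.05). There 4 of 13 Pol II subunits were higher and 9 lower (median -0.27), and 13 of 20 cell cycle genes were higher and 7 lower (0.29). Over all genes tested 49.9% were higher. The other 60S factors, at a median of 0.06, did not follow the 6 members described above. Of these 57 genes, 23 were higher and 34 lower in ND-Exos against BCAS (median -0.11), and 29 and 28 in WD-Exos against BCAS (0.01). The most uneven splits of these lists outside BCAS against Sham are given next. In WD-Exos against BCAS 5 of 19 Pol I factors were higher and 14 lower (median -0.29). There 4 of 20 cell cycle genes were higher and 16 lower (median -0.78), where 48.9% of all genes were higher. In WD-Exos against ND-Exos 1 of 13 Pol II subunits was higher and 12 lower (median -0.27). There 5 of 20 cell cycle genes were higher and 15 lower (median -0.62), where 49.2% of all genes were higher.

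A few genes of these lists had an unadjusted p under 0.01 without passing the threshold. Polr2m, which associates with Pol II, stood at 24.6 ± 18.2 CPM in BCAS, against 72.2 ± 29.5 in Sham (a log2 fold change of -1.55 with an SE of 0.45, adjusted p = 0.362 by edgeR), and 58.8 ± 17.0 with ND-Exos, against 24.6 ± 18.2 in BCAS (1.26, SE 0.45, adjusted p = 0.577 by edgeR). Rptor, the scaffold of mTOR complex 1, averaged 75.6 ± 30 CPM with WD-Exos and 27.4 ± 18.4 with ND-Exos (1.46, SE 0.48, adjusted p = 0.524 by edgeR). Ercc6, a repair factor that also acts in Pol I transcription, was at 18.3 ± 13.2 CPM in BCAS and 0.0624 ± 0.0546 in Sham. Rrs1, which in yeast helps to load the 5S particle, was at 4.08 ± 4.50 CPM with WD-Exos, 0.00558 ± 0.0137 with ND-Exos and 7.27 ± 7.53 in BCAS. Wrap53, a Cajal body protein that binds H/ACA RNA, was at 5.71 ± 8.41 CPM with WD-Exos and 4.84 ± 6.43 with ND-Exos, had no count in any BCAS library, and was at 1.87 ± 4.55 CPM in Sham. For the last 3 genes the low groups held almost no counts, and no fold change is given.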

How the data were processed

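Per the labels' protocols, microglia were sorted by FACS into lysate, and total RNA was amplified by Smart-seq2. The authors deposited estimated counts per Entrez gene, not scaled between libraries; 76.8% of genes with values were whole (tolerance 1e-06) in all 24 libraries. Which aligner, counter, build or annotation was used is not given in the sources used here. Of 22064 identifiers, 6186 were blank and 15878 had values. RefSeq (GRCm38.p6) named 22002. Of the members, 8 had fractional values.

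Counts were rounded and fitted with edgeR 4.0.16 (R 4.3.3). Genes passing filterByExpr (minimum 10 counts; 10219) were scaled by TMM (factors 0.936 to 1.17). One robust quasi-likelihood fit over 24 libraries had 4 group means, and p-values were adjusted by Benjamini-Hochberg over all genes (threshold 0.05). The SE was the size of the log2 fold change divided by the root of F; the 95% intervals are approximate. Pairwise Pearson r of log2(CPM + 1) between libraries was 0.759 to 0.877, with no identical pair. Coding length is the longest coding sequence in GENCODE release 21 for mouse. The procedure was tested on simulated data, with changes put only into genes with a mean above 100 CPM. Only 4 members had such a mean, so the simulation does not cover the others.

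Alternatives were DESeq2 1.42.0, voom with library weights (limma 3.58.1), RLE size factors, no filter and a minimum of 50 counts, the replicate number as a block, detected genes as a covariate, only the 2 groups compared, and leaving out each library. Members and lists were chosen with earlier results of these data known. The rule named 19 core members, members with an unadjusted p under 0.05, those left out by the filter, the 4 highest and 4 lowest per coding kilobase, and the gene with the smallest p, if under 0.01, of each pathway list. Nop2, Nop53, Utp18 and the other SSU processome members, the Pol I subunits under older symbols, Cx3cr1 and Myc fall outside this rule and were chosen after their values were seen. Amplified reads carry no molecular identifiers and are not independent molecules.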

Additional observations from a re-analysis of the deposited data

Results flagged for a closer look

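Of 80 groups of 6 libraries examined (20 members in 4 groups), 6 had 1 library whose gap to its neighbour on the log2(CPM + 1) scale took up more of the group's range than Dixon's 95% critical value of 0.625. Chance flags about 1 in 20 such groups when values are normally distributed, a rate that does not hold for groups with many zeros. Where all other libraries are at 0, as for Gar1 with ND-Exos, any count is flagged. Gar1 in WD-Exos replicate 3 stood at 2.90 (6.47 CPM, with the next library at 0.732 CPM). Gar1 in ND-Exos replicate 6 stood at 2.94 (6.69 CPM) and the other libraries of the group at 0. Dkc1 in ND-Exos replicate 3 stood at 4.09 (16.0 CPM, next library 55.7 CPM). Bop1 in ND-Exos replicate 2 stood at 0.16 (0.119 CPM, next library 27.9 CPM). Polr1c in BCAS replicate 2 stood at 0.91 (0.881 CPM, next library 15.3 CPM). Polr1c in Sham replicate 2 stood at 0.0 (0.0 CPM, next library 14.1 CPM).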

How the results depend on the processing

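No member passed the adjusted threshold in any comparison under any of the 33 settings tried; the smallest adjusted p was 0.216, for Nop16 in BCAS against Sham with no filter on low counts. Over all genes, edgeR called 0, 2, 0 and 2 genes in BCAS against Sham, in ND-Exos and in WD-Exos against BCAS, and in WD-Exos against ND-Exos, with 3 among the 4 groups. DESeq2 called 193, 141, 109, 124 and 163, and voom 10, 1, 1, 4 and 58. The covariate gave 1 in ND-Exos against BCAS and 13 among the 4 groups, no filter gave 30 among the 4 groups, and the 2 groups alone gave 1 in WD-Exos against ND-Exos. Leaving out 1 library gave 0 to 32 (32 without BCAS replicate 2), 1 to 3 (1 without BCAS replicate 5 or ND-Exos replicate 1, 2 or 6), 0 to 0, 2 to 5 (5 without ND-Exos replicate 5) and 2 to 42 (42 without BCAS replicate 2, 20 without ND-Exos replicate 3, 13 and 9 without WD-Exos replicate 1 and 5, 11 without BCAS replicate 1). The cause was not tested.

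The replicate block called 0, 2, 0, 2 and 2 genes and 0 members. Same-numbered libraries did not deviate together (mean r -0.00488 over 36 pairs and 1423 genes, 8 pairs over 0.1, range -0.29 to 0.288), so the numbers were not taken to pair samples. The median log2 fold change of the members in WD-Exos against BCAS was 0.12 with voom against -0.09, where voom moved the median of all genes to 0.15. Leaving out 1 library gave member medians of -0.23 to -0.06, -0.02 to 0.14, -0.08 to 0.10 and -0.16 to -0.01 in the 4 comparisons.

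Members with no call changed sign under some settings, 45 values of 793 with every library kept and 114 of 1200 with 1 left out, all with an adjusted p of at least 0.883. These counts and the values below cover 20 named members together with Utp20, Utp25, Nop2, Nop53 and Utp18. Utp4 and the other tested SSU processome members were not included. The log2 fold changes that changed sign were as follows. With DESeq2 and with RLE size factors they were in BCAS against Sham Ncl 0.0, in WD-Exos against ND-Exos Utp25 0.0. With detected genes as a covariate they were in BCAS against Sham Rrn3 -0.16, Ncl 0.07, Fbl 0.34, Wdr12 -0.01, Nip7 0.10, in ND-Exos against BCAS Polr1b -0.24, Fbl -0.48, in WD-Exos against BCAS Fbl -0.55, Nop58 0.09, in WD-Exos against ND-Exos Fbl -0.07, Dkc1 0.08, Nop2 0.04. With voom they were in BCAS against Sham Polr1a -0.07, Polr1b -0.44, Polr1c 0.77, Ncl 0.02, Gar1 -1.63, in ND-Exos against BCAS Fbl -0.07, Utp25 1.28, in WD-Exos against BCAS Polr1a 0.43, Polr1b 0.0, Polr1e 1.18, Dkc1 -0.27, Gar1 0.08, Utp25 0.76, in WD-Exos against ND-Exos Polr1e 1.02, Wdr12 0.02, Utp20 0.16, Nop2 0.02. With the replicate block they were in BCAS against Sham Polr1e 1.4, Ncl 0.0, Nip7 0.01, in ND-Exos against BCAS Polr1e -2.85, Utp25 1.59, in WD-Exos against BCAS Utp25 3.98, in WD-Exos against ND-Exos Polr1c -0.24, Polr1e 0.78, Fbl -0.06, Dkc1 0.01, Utp20 0.37, Utp25 2.40.

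The ranges over the libraries left out were in BCAS against Sham Polr1a -0.18 to 0.60, Polr1b -0.96 to 0.55, Polr1d -0.25 to 0.05, Ncl -0.14 to 0.13, Dkc1 -0.37 to 0.10, Wdr12 -0.02 to 0.39, Nip7 -0.46 to 0.19, in ND-Exos against BCAS Polr1b -0.32 to 1.31, Polr1d -0.21 to 0.01, Polr1e -0.89 to 0.60, Npm1 -0.02 to 0.15, Fbl -0.34 to 0.31, Nop58 -0.01 to 0.38, Nhp2 -0.32 to 0.07, Nop10 -0.04 to 0.21, Nolc1 -0.16 to 0.43, Wdr12 -0.39 to 0.03, Utp25 -1.39 to 0.42, in WD-Exos against BCAS Polr1a -0.43 to 0.32, Polr1b -1.47 to 0.17, Polr1e -0.41 to 0.29, Npm1 -0.23 to 0.0, Fbl -0.08 to 0.41, Nop58 -0.41 to 0.04, Dkc1 -0.08 to 0.43, Nip7 -0.04 to 0.59, Utp25 -1.08 to 0.38, in WD-Exos against ND-Exos Polr1c -0.13 to 0.32, Polr1e -0.65 to 0.80, Ncl -0.09 to 0.11, Fbl -0.11 to 0.49, Dkc1 -0.28 to 0.20, Gar1 -2.83 to 8.0, Wdr12 -0.40 to 0.14, Nop16 -0.41 to 0.10, Utp25 -0.68 to 0.95, Nop2 -0.24 to 0.24, Nop53 -0.14 to 0.06, Utp18 -1.09 to 0.51.

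The SE of a member's log2 fold change ran from 0.15 to 2.57 in BCAS against Sham. Rounding affected 8 members. A p that misses the threshold does not show that a gene did not differ. The labels name no batch, so no within-batch value was possible.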
